A study of Mus musculus with 18 samples.

Results

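The genes described here are 42 mouse innate immune genes, 36 of the interferon response and its chemokines and 6 of NF-kB signaling, chosen by name from the 55414 genes of a single count table. All 42 were found by symbol in the annotation and matched to the Ensembl identifiers of the table. RNA-seq was carried out on N2A (Neuro2A) cells, a mouse neuroblastoma line, 72 h after transfection of an siRNA. The cells received 1 of 6 siRNAs: a pair of negative control scrambled siRNAs (Scramble KD A and Scramble KD B), a pair against *Fmr1* (*Fmr1* KD A and *Fmr1* KD B, labelled fmrp siRNA) and a pair against *Zfp598* (*Zfp598* KD A and *Zfp598* KD B, labelled znf siRNA). Each siRNA had 3 libraries from total RNA depleted of rRNA, 18 in all, and every group, the controls included, had received the transfection reagent and a double-stranded siRNA. No untransfected cells were analysed here, so each level is set against a scrambled siRNA. The letters A and B name the siRNAs of a target, and nothing in the labels ties siRNA A of one target to siRNA A of another.

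*Fmr1* encodes FMRP, the RNA-binding protein lost in fragile X syndrome, and *Zfp598* encodes a ubiquitin ligase that acts on collided ribosomes. In the interferon response, sensors of foreign or double-stranded RNA (RIG-I, MDA5) signal through MAVS to interferon regulatory factors and NF-kB, which switch on *Ifnb1* and chemokine genes. Secreted interferon then acts through its receptor on ISGF3, a complex that includes STAT2 and IRF9 and binds the interferon-stimulated response element (ISRE) in the promoters of effector genes such as *Ifit1*, *Isg15* and *Rsad2*. NF-kB is held in the cytoplasm by inhibitors such as IkBa (*Nfkbia*), itself a target gene that feeds back on the pathway.

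The libraries held 7674724 to 15414590 counts. *Fmr1* had 227 to 408 counts in the 6 *Fmr1* KD libraries and 673 to 1043 in the 6 Scramble KD libraries, and its log2 fold change was -1.60 for siRNA A and -1.30 for siRNA B against the scrambled siRNA of the same letter. *Zfp598* had log2 fold changes of -1.54 and -1.52 in its own knockdowns. In *Zfp598* KD A2 and A3, 1 feature without an entry in the annotation used took 15.2% and 25.8% of the counts, against 5.00% to 11.1% in the other libraries. *Fmr1* KD B1 stood apart in 7 of 9 pluripotency markers, with 110 counts of *Nanog* and 34 of *Pou5f1* where no other library had more than 8 and 1. The summed level of 10 myeloid and lymphoid markers was 1.49 to 3.52 CPM in every library, with 2 of the 10 at 0 in all libraries, and that of 10 neuroblastoma markers was 967 to 1601 CPM. Levels are given as CPM, the counts of a gene relative to the library total, on library sizes scaled by the trimmed mean of M-values (TMM). Differences are log2 fold changes ± SE, and a gene was called at an adjusted p under 0.05 over the 17901 genes that passed a filter on low counts. Of the 42 genes, 33 passed that filter and were tested.

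Transfection of *Fmr1* siRNA A raised 16 of the 33 tested genes relative to Scramble KD A and lowered 1, where 10% of all genes rose and 13.6% fell. Of these, 10 rose over 2-fold, a size reached upward by 1.13% of all genes. The chemokine gene *Cxcl10* and the antiviral gene *Rsad2* rose most among the 33. The median log2 fold change over the 33 genes was 0.61, with 27 above 0, whereas the median over all genes was 0.01. In 13 of the 33 genes the 3 *Fmr1* KD A libraries were all higher than each of the other 15 libraries, as they were in 3.92% of all genes. *Ifih1* (in the 16, the 10 and the 13) and *Icam1* (in the 16 and the 10) would not have passed the filter without *Fmr1* KD. The summed level of 8 fibroblast markers, of which 5 had at most 3 counts in every library, was 14.7 to 19.1 CPM in *Fmr1* KD A and 9.98 to 11.1 CPM in Scramble KD A, and that of the neuroblastoma markers 1062 to 1162 CPM and 1525 to 1601 CPM. That of the 9 pluripotency markers was 181 to 196 CPM and 78.3 to 91.4 CPM, most of it *Lin28a* (means of 182 and 79.6 CPM). In every library most of the fibroblast sum was *Pdgfra*. It had 210, 180 and 207 counts in *Fmr1* KD A and 87, 135 and 99 in Scramble KD A. *Col1a1* had 29, 25 and 41 counts against 32, 25 and 41. The part of these markers in the result was not tested.

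*Cxcl10*, a chemokine that attracts T cells, measured 33.6, 32.2 and 33.6 CPM in *Fmr1* KD A and 1.76, 1.32 and 1.13 CPM in Scramble KD A. The highest of the 15 libraries outside *Fmr1* KD A had 2.98 CPM. The groups did not overlap, and the log2 fold change was 4.57 ± 0.22, a 23.7-fold rise (adjusted p = 5.97e-11 in the quasi-likelihood test of edgeR). *Ccl5*, another chemokine for T cells, did not pass the filter and was singled out after its values were seen. It had 80, 73 and 48 counts in the *Fmr1* KD A libraries and 1, 4 and 0 in Scramble KD A, and no library outside *Fmr1* KD A exceeded 8. The chemokine gene *Ccl2* had 1, 2 and 5 counts in *Fmr1* KD A and at most 3 elsewhere. *Ifnb1*, which encodes interferon beta, had 1 count in each of 2 libraries, Scramble KD B1 and *Zfp598* KD B3, and 0 counts in the other 16, which allows up to 3 counts in each.

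To show what these genes hold near their starts, the window from 250 bases before to 50 bases after the start of the canonical transcript was read from the GRCm39 genome for every protein-coding gene of the GENCODE M39 annotation. Searched on both strands, the ISRE core (GAAA, any 2 bases and GAAA again) occurred in 3.83% of the 21627 windows and in 17 of the 42 genes. A 10-base NF-kB (kB) consensus occurred in 8.95% of the windows and in 12 of the 42. Among the 10 genes raised over 2-fold and *Ccl5*, 5 windows held an ISRE core and 5 a kB match, and among the other 31 genes these were in 12 and 7. The first set was chosen by level in these data, with *Ccl5* added after its values were seen. *Icam1* and *Ifih1* in it would not have passed the filter without *Fmr1* KD. No conclusion on the sets is drawn from these counts. A match is a description of letters and says nothing of whether a factor binds there. The following stretches, written 5′ to 3′ in the direction of the gene with the matches in capitals, show where they lie in 7 of those genes. They come from chr5:92496827-92496976 (minus strand, 228 to 79 bases before the start of *Cxcl10*), chr11:83421410-83421449 (minus, 104 to 65 before *Ccl5*), chr12:26506547-26506586 (minus, 135 to 96 before *Rsad2*), chr4:156285317-156285368 (minus, 65 to 14 before *Isg15*), chr19:34618170-34618228 (plus, 101 to 43 before *Ifit1*), chr9:20926422-20926453 (plus, 250 to 219 before *Icam1*) and chr12:55539437-55539476 (minus, 44 to 5 before *Nfkbia*), all upstream of the canonical transcript, and that of *Ccl5* within an intron of a longer annotated transcript.
Cxcl10: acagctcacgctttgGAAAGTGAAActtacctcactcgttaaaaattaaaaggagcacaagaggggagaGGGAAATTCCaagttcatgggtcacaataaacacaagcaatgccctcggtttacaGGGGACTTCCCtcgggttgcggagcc
Ccl5: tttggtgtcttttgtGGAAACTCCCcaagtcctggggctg
Rsad2: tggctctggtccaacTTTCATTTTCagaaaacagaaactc
Isg15: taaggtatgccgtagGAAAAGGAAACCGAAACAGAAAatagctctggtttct
Ifit1: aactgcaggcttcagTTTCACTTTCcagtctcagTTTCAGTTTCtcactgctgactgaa
Icam1: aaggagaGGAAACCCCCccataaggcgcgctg
Nfkbia: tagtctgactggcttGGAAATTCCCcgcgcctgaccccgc
*Cxcl10* held both kinds of match, an ISRE core and, nearer the start, 3 kB matches of which the last 2 overlap. *Isg15* held 3 overlapping ISRE cores and *Ifit1* held 2, read on the opposite strand. The stretches of *Ccl5*, *Icam1* and *Nfkbia* held only a kB match and that of *Rsad2* only an ISRE core.

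Of the effectors, *Rsad2* (viperin, which makes a chain-terminating ribonucleotide) measured 46.8, 44.0 and 31.1 CPM in *Fmr1* KD A and 3.96, 5.76 and 5.95 CPM in Scramble KD A. The *Fmr1* KD A libraries did not overlap with any of the other 15, and the log2 fold change was 2.95 ± 0.20 (adjusted p = 8.76e-09, edgeR). *Isg15*, the ubiquitin-like protein that is joined to other proteins in the interferon response, measured 13.9, 11.5 and 12.7 CPM against 3.52, 3.51 and 3.68 CPM. Its log2 fold change was 1.83 ± 0.21 (adjusted p = 1.96e-06, edgeR). The other genes of ISGylation did not pass: *Usp18*, which removes ISG15, measured 0.15, and *Trim25*, a ubiquitin and ISG15 ligase, measured -0.13 on the same log2 scale. *Ifitm3*, which blocks virus entry at membranes, measured 7.44, 6.38 and 7.85 CPM against 2.38, 2.91 and 1.77 CPM (log2 fold change 1.61 ± 0.22, adjusted p = 1.79e-05, edgeR). *Cmpk2*, a mitochondrial nucleotide kinase next to *Rsad2* on chromosome 12, moved the other way, with 5.95, 6.45 and 7.03 CPM against 11.1, 9.01 and 10.8 CPM. It fell by 0.67 (adjusted p = 0.00569, edgeR), but against all 6 Scramble KD libraries its log2 fold change was 0.10 and was not called. *Isg20*, *Bst2*, *Ifi35* and *Xaf1* did not pass, with log2 fold changes of -0.18, -0.07, 0.19 and 0.73.

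**Figure D1:**
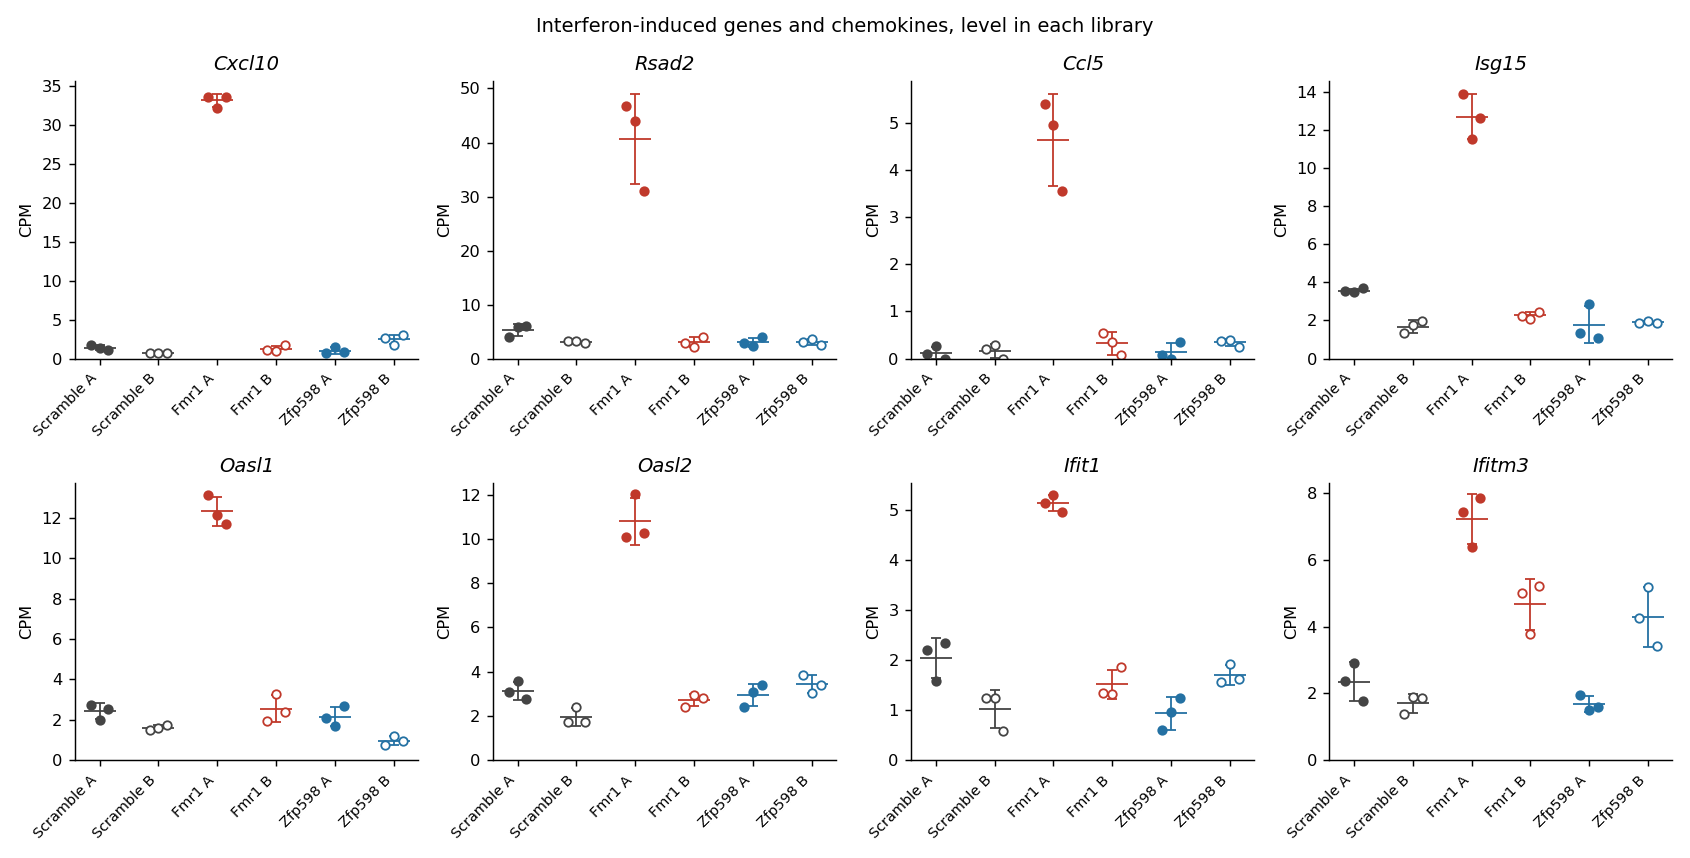
Level in CPM (linear axes from 0) of 8 interferon-induced genes and chemokines in each of the 18 libraries, by siRNA. Points are libraries (filled, siRNA A; open, siRNA B), bars are the mean and SD of 3. The 3 *Fmr1* KD A libraries of *Cxcl10* sit between 32.2 and 33.6 CPM and no other library is above 2.98 CPM.

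In the OAS family, which bind double-stranded RNA or resemble the enzymes that do, the OAS-like members rose. *Oasl1* measured 13.1, 12.2 and 11.7 CPM against 2.73, 1.99 and 2.55 CPM in Scramble KD A (log2 fold change 2.35 ± 0.21, adjusted p = 9.33e-08, edgeR). *Oasl2* measured 10.1, 12.0 and 10.3 CPM against 3.08, 3.58 and 2.76 CPM (log2 fold change 1.78 ± 0.18, adjusted p = 6.35e-07, edgeR). *Oas1a* measured 1.76, 2.17 and 1.998 CPM against 1.23, 1.32 and 1.13 CPM and did not pass (log2 fold change 0.68). *Oas2* and *Oas3* were too low to test, with at most 10 and 16 counts in any library. In the IFIT family, whose proteins bind foreign RNA ends, *Ifit1* measured 5.14, 5.29 and 4.96 CPM against 2.20, 1.59 and 2.34 CPM (log2 fold change 1.33 ± 0.26, adjusted p = 6.78e-04, edgeR). *Ifit2* measured 1.42, 2.10 and 1.04 CPM against 0.440, 1.46 and 1.06 CPM, and the libraries overlapped. *Ifit3* and *Ifit3b* had at most 4 counts and 1 count in any library, and *Ifi44* and the sensor *Zbp1* at most 2. *Parp9*, *Parp14* and *Dtx3l*, which encode ADP-ribosylating enzymes and a ubiquitin ligase that act together, measured 0.09, -0.07 and 0.05 and did not pass.

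Among the RNA sensors, *Ifih1* (MDA5) measured 1.89, 1.83 and 1.18 CPM against 0.440, 0.464 and 0.850 CPM. Its log2 fold change was 1.46 ± 0.48 (adjusted p = 0.0324, edgeR). It would not have passed the filter without the *Fmr1* KD libraries, so this call lends no support. *Dhx58* (LGP2, a regulator of both sensors) measured 4.93, 3.05 and 3.48 CPM against 1.41, 2.45 and 1.98 CPM and rose by 0.95 on the log2 scale. *Rigi* (RIG-I) rose by 0.61, from a mean of 15.3 CPM, while *Eif2ak2* (the kinase PKR) and *Adar* (the RNA-editing enzyme ADAR1) measured 0.23 and 0.20 and did not pass. Of ISGF3 and the regulatory factors, *Irf9* rose by 0.89 ± 0.18 (adjusted p = 7.88e-04, edgeR), and *Stat2* (-0.05) and *Irf7* (0.68, adjusted p = 0.0504, edgeR) did not pass. The calls of *Ifih1*, *Rigi* and *Dhx58* each depended on single libraries. Without *Fmr1* KD A1, *Fmr1* KD A2, Scramble KD A1 or Scramble KD A2 *Ifih1* was no longer called (adjusted p up to 0.104, edgeR), nor was *Rigi* without *Fmr1* KD A2 (0.0640) or *Dhx58* without *Fmr1* KD A1 (0.0759), and their log2 fold changes without 1 library were 1.30 to 1.84, 0.46 to 0.73 and 0.72 to 1.15.

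**Figure D2:**
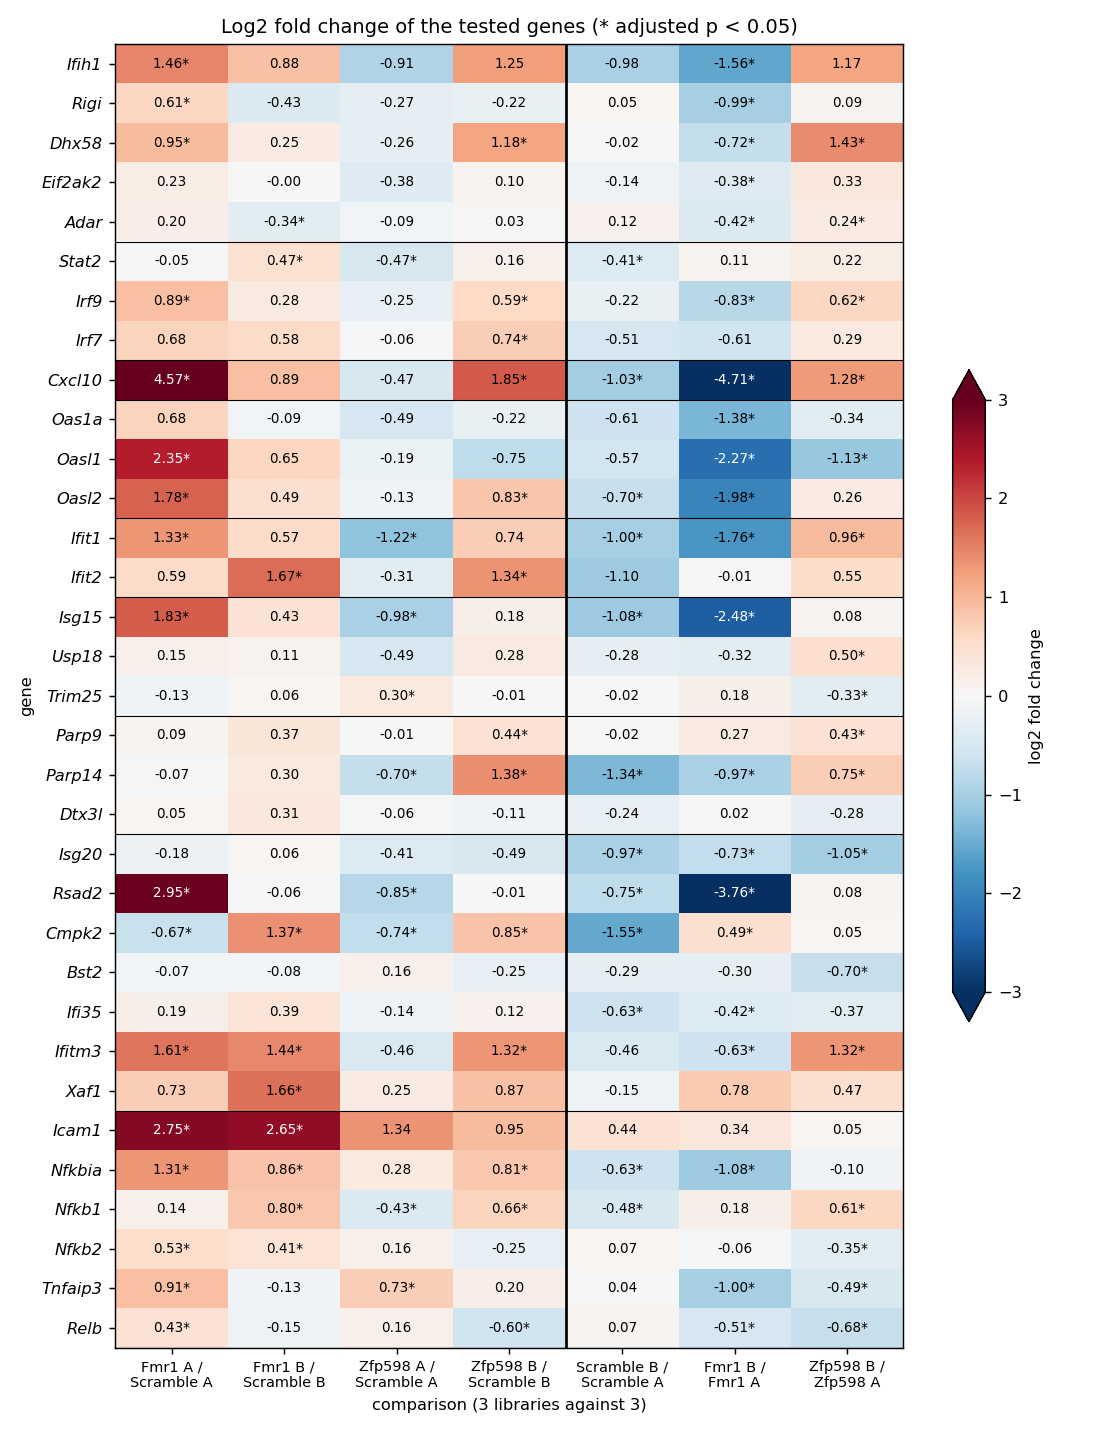
Log2 fold change of the 33 tested genes (rows, ordered by role) in 4 comparisons of a knockdown siRNA with the scrambled siRNA of the same letter (left of the line) and 3 comparisons of siRNA B with siRNA A of the same target (right). Asterisks mark an adjusted p under 0.05 and the color scale stops at 3 and -3. The largest values, 4.57 and -4.71, are those of *Cxcl10* in *Fmr1* KD A against Scramble KD A and in *Fmr1* KD B against *Fmr1* KD A.

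Of the 6 NF-kB genes, 5 rose with *Fmr1* siRNA A, where 10% of all genes rose. *Nfkbia*, the most abundant of the 42 genes per length in each siRNA group, measured 149, 140 and 161 CPM against 60.3, 62.0 and 58.5 CPM in Scramble KD A. Its libraries did not overlap with those of any other group, and the log2 fold change was 1.31 ± 0.09 (adjusted p = 1.05e-08, edgeR). *Icam1*, an adhesion molecule for leukocytes, was low, with 1.69, 1.90 and 1.55 CPM against 0.264, 0.0662 and 0.425 CPM (log2 fold change 2.75 ± 0.67, adjusted p = 0.00462, edgeR). It had 1 to 9 counts in the 12 libraries outside *Fmr1* KD and passed the filter only through the *Fmr1* KD libraries, where it was high, so its calls for *Fmr1* KD lend no support. *Tnfaip3*, which encodes the inhibitor A20, rose by 0.91, *Nfkb2* (p100) by 0.53 and *Relb* by 0.43, and *Nfkb1* (p105) measured 0.14 and did not pass. The call of *Relb* was lost without any 1 of 10 libraries, namely *Fmr1* KD A1, A3, B1, B2 and B3, Scramble KD A1, A2, A3 and B2, and *Zfp598* KD B2, with an adjusted p of up to 0.187 (edgeR) and a log2 fold change of 0.33 to 0.53.

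With *Fmr1* siRNA B, 9 of the 33 genes rose relative to Scramble KD B and 1 fell, where 11.3% of all genes rose and 11.3% fell. Of these, 5 rose over 2-fold, against 3.04% of all genes, and the median over the 33 was 0.39. The fibroblast markers, mostly *Pdgfra*, summed to 12.1 to 14.97 CPM in *Fmr1* KD B and 6.46 to 7.31 CPM in Scramble KD B. The neuroblastoma markers summed to 1189 to 1357 CPM and 967 to 1072 CPM. The part of both marker sets was not tested. *Cxcl10* measured 1.08, 0.980 and 1.72 CPM against 0.658, 0.657 and 0.703 CPM (log2 fold change 0.89), and *Rsad2* 2.97, 2.10 and 3.91 CPM against 3.23, 3.28 and 2.88 CPM (-0.06). *Isg15*, *Oasl1*, *Oasl2* and *Ifit1* measured 0.43, 0.65, 0.49 and 0.57 and did not pass.

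The genes that rose over 2-fold with siRNA B were *Icam1*, *Ifit2*, *Xaf1*, *Ifitm3* and *Cmpk2*. *Ifitm3* measured 4.99, 3.78 and 5.22 CPM against 1.38, 1.90 and 1.85 CPM in Scramble KD B (log2 fold change 1.44 ± 0.23, adjusted p = 1.30e-04, edgeR). *Cmpk2* measured 9.85, 7.49 and 9.96 CPM against 3.23, 3.28 and 4.03 CPM (log2 fold change 1.37 ± 0.18, adjusted p = 1.17e-05, edgeR). The 3 *Fmr1* KD B libraries of *Cmpk2* were all higher than those of Scramble KD B, though 2 of the Scramble KD A libraries were higher still. *Xaf1*, which promotes cell death, measured 3.78, 2.59 and 1.99 CPM against 0.790, 0.876 and 0.959 CPM (log2 fold change 1.66 ± 0.38, adjusted p = 0.00303, edgeR). *Ifit2* measured 1.62, 1.26 and 1.65 CPM against 0.329, 0.292 and 0.767 CPM (log2 fold change 1.67 ± 0.44, adjusted p = 0.00877, edgeR). *Icam1* measured 4.79, 0.910 and 0.824 CPM against 0.329, 0.511 and 0.192 CPM, so 1 library, *Fmr1* KD B1, held most of the difference. Its log2 fold change was 2.66 ± 0.61 (adjusted p = 0.00301, edgeR) with that library and 1.33 without it (adjusted p = 0.0589, edgeR). *Fmr1* KD B1 is the library with the pluripotency markers, whose part in the level of *Icam1* was not tested, and without it 9 of the 33 genes were called in place of 10.

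Smaller rises with siRNA B were those of *Nfkbia* (0.86 ± 0.10), *Nfkb1* (0.80 ± 0.08), *Stat2* (0.47 ± 0.11) and *Nfkb2* (0.41 ± 0.12). *Nfkbia* measured 70.4, 70.4 and 71.8 CPM against 35.7, 45.02 and 36.4 CPM in Scramble KD B, and no library overlapped. *Adar* fell by 0.34 ± 0.08. The call of *Nfkb2* was lost without *Fmr1* KD B1, *Fmr1* KD B3 or Scramble KD B1 (adjusted p up to 0.0854, edgeR, log2 fold change 0.34 to 0.46). Against all 6 Scramble KD libraries the rises of *Cmpk2*, *Nfkbia* and *Ifit2* were 0.60, 0.55 and 1.12 and were still called, and *Stat2* (0.26) was not. *Oas3*, outside the main test, had 16, 13 and 7 counts in *Fmr1* KD B and 1, 1 and 4 in Scramble KD B.

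With both *Fmr1* siRNAs, each against the scrambled siRNA of the same letter, 4 of the 33 genes were called higher, as were 1.66% of all genes. They were *Ifitm3*, *Nfkbia*, *Nfkb2* and *Icam1*, the last of which passed the filter only through *Fmr1* KD. *Cmpk2* was called in opposite directions. Compared directly, *Fmr1* KD B had lower levels than *Fmr1* KD A in 20 of the 33 genes and a higher level in 1. Of all genes, 11.1% were lower and 13.3% higher. *Ifih1*, among the 20, would not have passed the filter without *Fmr1* KD, so its call lends no support. *Cxcl10* was 26.1-fold lower with siRNA B (log2 fold change -4.71 ± 0.22, adjusted p = 1.16e-11, edgeR) and *Rsad2* 13.5-fold lower (-3.76 ± 0.21, adjusted p = 3.40e-10, edgeR). The calls of *Ifih1* (without *Fmr1* KD A1, A2, B2 or B3, log2 fold change -1.96 to -1.32) and *Ifitm3* (without *Fmr1* KD A1, A3 or B2; -0.72 to -0.50) depended on single libraries. So did those of *Dhx58*, *Eif2ak2*, *Isg20*, *Ifi35*, *Relb* and *Cmpk2*, the last of which was higher. *Oas1a*, not called for either siRNA against the scrambled siRNA of the same letter, was also lower. It measured 1.42, 0.280 and 0.549 CPM against 1.76, 2.17 and 1.998 CPM (-1.38 ± 0.42, adjusted p = 0.0186, edgeR). That call was lost without *Fmr1* KD A2, B2 or B3 (adjusted p up to 0.0985, edgeR, log2 fold change -2.22 to -0.997). Without *Fmr1* KD B1, 16 genes were lower and 0 higher.

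The difference between the effects of the siRNAs, each relative to the scrambled siRNA of the same letter, was tested as an interaction. Of the 33 genes 12 passed. In 9 the log2 fold change was lower for siRNA B than for siRNA A (9.65% of all genes), and in 3 it was higher (12.2%). The sign gives the direction of the difference, not which effect was larger. The effect of siRNA B was smaller by 3.67 ± 0.43 in *Cxcl10*, 3.005 ± 0.32 in *Rsad2*, 1.70 ± 0.32 in *Oasl1*, 1.40 ± 0.33 in *Isg15* and 1.28 ± 0.28 in *Oasl2* on the log2 scale. *Tnfaip3*, *Rigi*, *Adar* and *Nfkbia* also passed with a lower value for siRNA B, and *Cmpk2*, *Nfkb1* and *Stat2* with a higher value. Of these, *Adar* was not called with siRNA A and fell with siRNA B (-0.34). The calls of *Stat2* (without *Fmr1* KD A3, *Fmr1* KD B2 or Scramble KD B2; 0.41 to 0.59) and *Nfkbia* (without *Fmr1* KD A3 or Scramble KD B2; -0.51 to -0.34) depended on single libraries. For *Ifitm3*, *Icam1*, *Ifit1* and *Ifih1* the interaction did not pass, so a difference between the siRNA effects was not shown for them. The 3 genes with a higher value for siRNA B were lower in Scramble KD B than in Scramble KD A (*Cmpk2* -1.55, *Nfkb1* -0.48, *Stat2* -0.41). Directly between the *Fmr1* siRNAs only *Cmpk2* of these was called (0.49). That call was lost without *Fmr1* KD A1, A2, B1 or B3 (adjusted p up to 0.133, edgeR, log2 fold change 0.42 to 0.61). In these samples the siRNA sequence, and any effect of it beyond its target, cannot be told apart from the siRNA letter. The scrambled siRNAs are paired with the others by letter only, and the difference between them enters each interaction.

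Pooling both siRNAs, as in the design of the study (n = 6 per condition), *Fmr1* KD raised 10 of the 33 genes over Scramble KD and lowered 0, where 2.73% of all genes rose and 3.8% fell. These were *Cxcl10*, *Icam1*, *Rsad2*, *Oasl1*, *Ifitm3*, *Isg15*, *Oasl2*, *Xaf1*, *Nfkbia* and *Nfkb2*, with log2 fold changes from 4.06 (*Cxcl10*) to 0.47 (*Nfkb2*), and 9 of them were over 2-fold (0.665% of all genes). *Icam1* passed the filter only through the *Fmr1* KD libraries, where it was high. In 6 of the 33 genes all 6 *Fmr1* KD libraries were above all 6 Scramble KD libraries, as in 2.46% of all genes. These were *Ifitm3*, *Icam1*, *Xaf1*, *Nfkbia*, *Nfkb2* and *Nfkb1*, of which *Nfkb1* was not called. In *Cxcl10*, *Rsad2*, *Isg15*, *Oasl1* and *Oasl2* they overlapped, and there the siRNA B libraries reached no higher than 3.91 CPM. *Cxcl10* had a lowest level of 0.980, a median of 16.9 and a highest of 33.6 CPM over the 6 *Fmr1* KD libraries, and 0.657, 0.918 and 1.76 CPM over the 6 Scramble KD libraries. When the 3 libraries of each siRNA were summed, leaving 2 against 2, 0 of the 33 genes were called. The share of all genes called in that fit is not given here, so no conclusion on these genes is drawn from it. The call of *Isg15* was lost without any 1 of 8 libraries (*Fmr1* KD A1, A2 or A3, Scramble KD A2, B1, B2 or B3, or *Zfp598* KD B3; adjusted p up to 0.119, edgeR, log2 fold change 1.24 to 1.71) and that of *Oasl2* without *Fmr1* KD A1, A2 or A3 or Scramble KD B1 (up to 0.0600; 1.17 to 1.59).

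**Figure D3:**
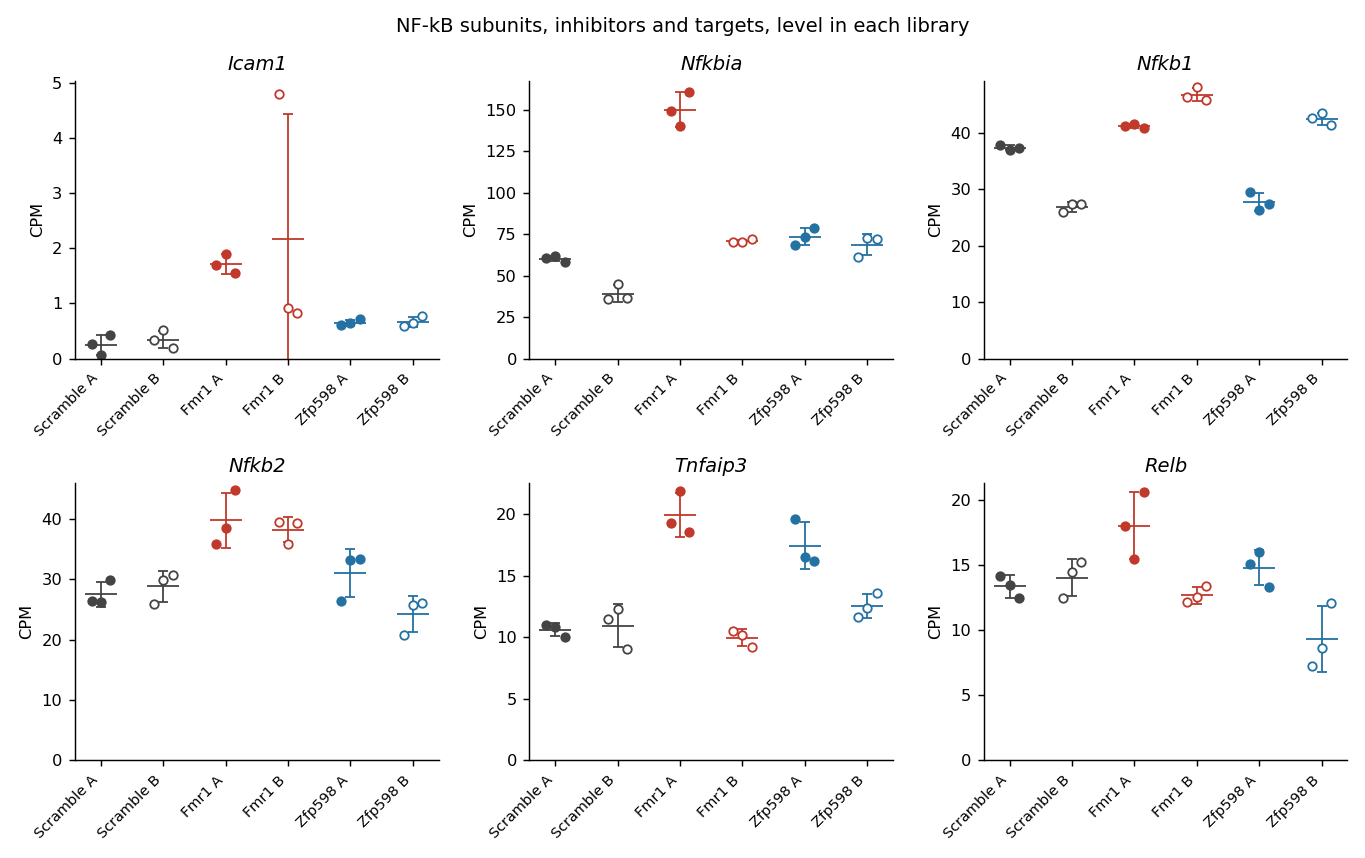
Level in CPM (linear axes from 0) of the 6 NF-kB genes in each of the 18 libraries, drawn as in the plot of interferon-induced genes, with the mean and SD of 3. *Nfkbia* reaches 140 to 161 CPM in *Fmr1* KD A, and 1 library, *Fmr1* KD B1 with 4.79 CPM, lies apart in *Icam1*, whose SD there extends below 0.

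Knockdown of *Zfp598* gave no call in the pooled comparison with Scramble KD, 0 of 33 with edgeR and 0 with DESeq2, where 1.96% of all genes were called. Without adjustment 4 genes had a p under 0.05, all higher, and they were *Dhx58*, *Icam1*, *Nfkbia* and *Tnfaip3* (log2 fold changes 0.67, 1.12, 0.52 and 0.47). Taken separately, the siRNAs differed. With siRNA B, 12 of the 33 genes rose relative to Scramble KD B and 1 fell, where 12.4% of all genes rose and 14.4% fell, and 5 rose over 2-fold (2.68% of all genes). The fibroblast markers, mostly *Pdgfra*, summed to 11.7 to 15.5 CPM in *Zfp598* KD B and 6.46 to 7.31 CPM in Scramble KD B. The neuroblastoma markers summed to 1240 to 1439 CPM and 967 to 1072 CPM. The part of both marker sets was not tested. *Cxcl10* measured 2.61, 1.76 and 2.98 CPM against 0.658, 0.657 and 0.703 CPM (log2 fold change 1.85 ± 0.29, adjusted p = 9.71e-05, edgeR). *Parp14* measured 12.8, 12.0 and 9.80 CPM against 4.94, 4.09 and 4.22 CPM (1.38 ± 0.19, adjusted p = 2.21e-05, edgeR). *Ifitm3* measured 4.24, 5.20 and 3.41 CPM against 1.38, 1.90 and 1.85 CPM (1.32 ± 0.24, adjusted p = 3.18e-04, edgeR). *Dhx58* measured 5.21, 4.32 and 3.75 CPM against 1.71, 1.82 and 2.30 CPM (1.18 ± 0.25, adjusted p = 0.00142, edgeR). In each of these 4 genes the *Zfp598* KD B libraries were all above those of Scramble KD B.

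*Ifit2* was the fifth gene over 2-fold with *Zfp598* siRNA B, at 0.894, 1.44 and 1.28 CPM (log2 fold change 1.34), and its call was lost without Scramble KD B1, Scramble KD B2, *Zfp598* KD B2 or *Zfp598* KD B3 (adjusted p up to 0.132, edgeR, log2 fold change 1.11 to 1.91). Smaller rises were those of *Cmpk2* (0.85), *Oasl2* (0.83), *Nfkbia* (0.81), *Irf7* (0.74), *Nfkb1* (0.66), *Irf9* (0.59) and *Parp9* (0.44), and *Relb* fell by 0.60. *Nfkbia* measured 61.2, 72.5 and 72.0 CPM, above the 3 Scramble KD B libraries. Calls of *Irf7* (without any 1 of 7 libraries, *Fmr1* KD A1, A2 or B2, Scramble KD B2 or B3 or *Zfp598* KD B1 or B3, adjusted p up to 0.166, edgeR, log2 fold change 0.58 to 0.94), *Irf9* (without Scramble KD B2 or B3 or *Zfp598* KD B2; up to 0.102; 0.48 to 0.71), *Parp9* (without any Scramble KD B library or *Zfp598* KD B1 or B2; up to 0.0996; 0.40 to 0.51) and *Relb* (without *Zfp598* KD B1; 0.0647; -0.82 to -0.44) depended on single libraries. Set against all 6 Scramble KD libraries, *Cmpk2* (0.08), *Ifit2* (0.79) and *Irf7* (0.49) were not called, and the rise of *Parp14* was 0.71.

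With *Zfp598* siRNA A, 2 of the 33 genes rose relative to Scramble KD A and 7 fell, where 6.3% of all genes rose and 5.64% fell. The pluripotency markers summed to 138 to 184 CPM in *Zfp598* KD A and 78.3 to 91.4 CPM in Scramble KD A, and their part was not tested. *Ifit1* measured 0.601, 0.960 and 1.25 CPM against 2.20, 1.59 and 2.34 CPM (log2 fold change -1.22 ± 0.34, adjusted p = 0.0238, edgeR). *Isg15* measured 1.35, 2.88 and 1.07 CPM against 3.52, 3.51 and 3.68 CPM (-0.98), *Rsad2* 2.93, 2.24 and 3.91 CPM against 3.96, 5.76 and 5.95 CPM (-0.85). *Cmpk2* (-0.74), *Parp14* (-0.70), *Stat2* (-0.47) and *Nfkb1* (-0.43) also fell, and *Tnfaip3* rose by 0.73 and *Trim25* by 0.30. In all 7 genes that fell the *Zfp598* KD A libraries were below those of Scramble KD A, in *Rsad2* by a narrow margin. The share of all genes separated in this way was not counted. Leaving out 1 library ended the calls of *Trim25* (Scramble KD A2 or A3 or *Zfp598* KD A2 or A3, log2 fold change 0.23 to 0.39), *Ifit1* (Scramble KD A3 or *Zfp598* KD A1 or A2; -1.42 to -0.91), *Isg15* (Scramble KD A3 or *Zfp598* KD A1 or A3; -1.50 to -0.74), *Parp14* (Scramble KD A2 or *Zfp598* KD A2 or A3; -0.98 to -0.59), *Rsad2* (Scramble KD A2 or A3 or *Zfp598* KD A2; -1.01 to -0.68) and *Stat2* (*Zfp598* KD A2; -0.57 to -0.43). With only the groups compared in the fit 0 genes were called, without *Zfp598* KD A2 the count was 4 of 33, and without both *Zfp598* KD A2 and A3, the libraries with the high share of a single feature, it was also 4. Against all 6 Scramble KD libraries 3 were called, all higher, and *Cmpk2* turned to 0.03. Between the *Zfp598* siRNAs 10 of the 33 genes were higher with siRNA B and 7 lower, where 15.6% and 19.7% of all genes were, with *Dhx58* (1.43), *Ifitm3* (1.32) and *Cxcl10* (1.28) over 2-fold higher and *Oasl1* (-1.13) and *Isg20* (-1.05) over 2-fold lower, against 3.26% and 4.31% of all genes. The call of *Isg20* was lost without *Zfp598* KD A2 (log2 fold change -1.20 to -0.83). The interaction, which contains the difference between the scrambled siRNAs, passed in 15 genes. A positive interaction is not always a larger effect of siRNA B, since *Isg15* and *Stat2* were called only with siRNA A, as lower. Of the 15 genes, 13 had a higher log2 fold change for siRNA B than for siRNA A (10.1% of all genes). In 2 it was lower (11.9%). Leaving out 1 library ended 6 of these calls, those of *Irf9* (Scramble KD A2, B2 or B3 or *Zfp598* KD B2, interaction 0.68 to 0.96), *Oasl2* (Scramble KD A2, B1 or B3 or *Zfp598* KD A1 or B1, 0.80 to 1.13), *Isg15* (Scramble KD A3 or B1 or *Zfp598* KD A1, A3, B1 or B2, 0.92 to 1.69), *Usp18* (Scramble KD A2 or B2 or *Zfp598* KD A2 or B1, 0.65 to 0.88), *Relb* (Scramble KD A3 or *Zfp598* KD A2, B1 or B2, -0.98 to -0.60) and *Tnfaip3* (any library but Scramble KD B3, *Zfp598* KD A3 or *Zfp598* KD B3, -0.66 to -0.43).

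The scrambled siRNAs themselves differed in these genes. Relative to Scramble KD A, Scramble KD B had lower levels of 12 of the 33 genes and higher levels of 0, where 12.2% of all genes were lower and 10.4% higher, and the median over the 33 was -0.46. The neuroblastoma markers summed to 967 to 1072 CPM in Scramble KD B and 1525 to 1601 CPM in Scramble KD A. The fibroblast markers, mostly *Pdgfra*, summed to 6.46 to 7.31 and 9.98 to 11.1 CPM, and the pluripotency markers to 136 to 149 and 78.3 to 91.4 CPM. The part of these marker sets was not tested. *Cmpk2* measured 3.23, 3.28 and 4.03 CPM in Scramble KD B and 11.1, 9.01 and 10.8 CPM in Scramble KD A (log2 fold change -1.55 ± 0.18, adjusted p = 3.22e-06, edgeR). *Parp14* measured 4.94, 4.09 and 4.22 CPM and 10.7, 12.4 and 10.48 CPM (-1.34 ± 0.19, adjusted p = 3.78e-05, edgeR), and *Isg15* 1.32, 1.75 and 1.98 CPM and 3.52, 3.51 and 3.68 CPM (-1.08 ± 0.24, adjusted p = 0.00298, edgeR). *Cxcl10* was lower by 1.03, a call lost without Scramble KD A1, B1, B2 or B3 (adjusted p up to 0.110, edgeR, log2 fold change -1.17 to -0.86). *Ifit1* (-0.996), *Isg20* (-0.97), *Rsad2* (-0.75), *Oasl2* (-0.70), *Nfkbia* (-0.63), *Ifi35* (-0.63), *Nfkb1* (-0.48) and *Stat2* (-0.41) were also lower. Leaving out 1 library ended the calls of *Rsad2* (Scramble KD A2, A3, B1, B2 or B3, log2 fold change -0.91 to -0.66), *Ifit1* (A1, A3 or B3; -1.18 to -0.70), *Oasl2* (A2, B1 or B3; -0.87 to -0.59), *Isg20* (B1; -1.05 to -0.83) and *Stat2* (B2; -0.49 to -0.34). Every comparison with a single scrambled siRNA contains this difference, which ranged from -0.41 to -1.55 in the genes called.

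**Figure D4:**
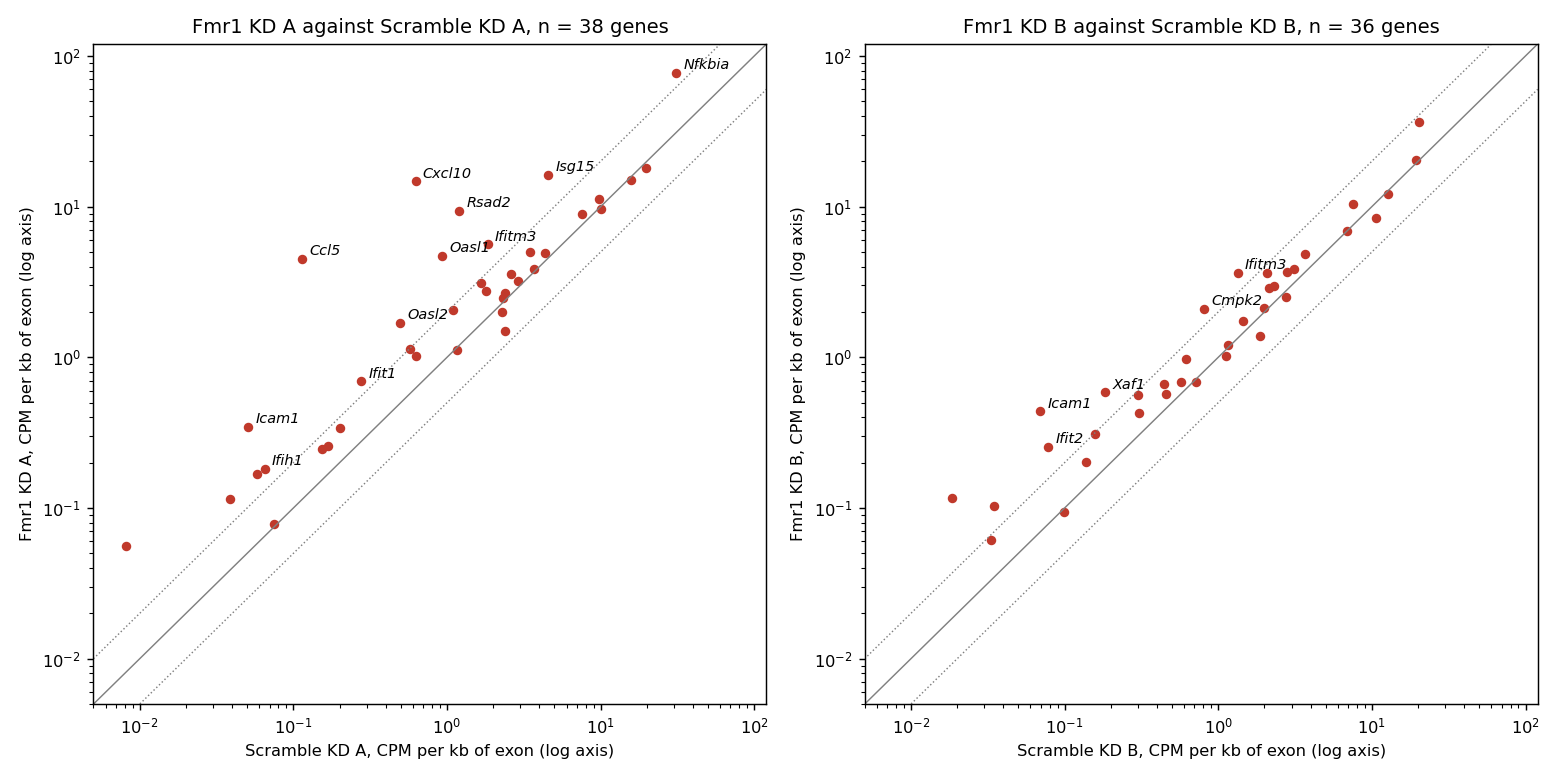
Mean level of 3 libraries in CPM per kb of exon (both axes log scaled) of *Fmr1* KD against the scrambled siRNA of the same letter, for siRNA A (left, 38 genes) and siRNA B (right, 36 genes). The solid line marks equal levels and the dotted lines 2-fold. Genes at 0 in either group of a panel are left out, and tested genes beyond 2-fold and *Ccl5* are named.

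Per kb of exon, the level of these genes spanned from 0 to 31.1 CPM in Scramble KD A, where *Nfkbia* (31.1), *Trim25* (19.7), *Bst2* (15.7), *Stat2* (10.1) and *Adar* (9.76) led. *Isg15* (4.57 CPM per kb) was the seventh there, and *Rsad2* (1.21) lay lower. In *Fmr1* KD A the order began with *Nfkbia* (77.5), *Trim25* (17.96), *Isg15* (16.3), *Bst2* (14.9) and *Cxcl10* (14.7). *Isg15*, *Bst2* and *Cxcl10* are neighbours in that order. Their libraries overlap once length is counted, and no order among the 3 is claimed. In *Fmr1* KD B the same 5 genes as in Scramble KD A led.

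Around these genes, 119 others of the same pathways were listed, of which 95 were tested. With *Fmr1* siRNA A, 15 of the 95 rose and 7 fell, where 10% and 13.6% of all genes did, with a median log2 fold change of 0.07 against 0.01 over all genes. Among the receptors, kinases and STAT proteins that carry the interferon signal, 0 of 15 rose and 1 fell. In the NF-kB relay (subunits, kinases and adaptors) 7 of 21 rose and 0 fell, and among further NF-kB outputs 3 of 12 rose, *Cxcl1* (a neutrophil chemokine) by 1.60. Of other interferon-induced genes 3 of 29 rose and 5 fell, and *Mx1*, a GTPase against influenza viruses, fell by 1.36. With *Fmr1* siRNA B 16 rose and 8 fell (11.3% and 11.3% of all genes), and *Bcl3*, an IkB-like coactivator, rose by 1.34. *Bcl3* had 68, 31 and 28 counts in *Fmr1* KD B1, B2 and B3 and 16, 14 and 21 in Scramble KD B. The highest was in *Fmr1* KD B1, the library with the pluripotency markers, whose part in this rise was not tested. With *Zfp598* siRNA A 9 rose and 3 fell (6.3% and 5.64% of all genes). With *Zfp598* siRNA B 15 rose and 17 fell (12.4% and 14.4% of all genes), and *Bcl3*, *Il6* (a cytokine) and *Ier3* (an early response gene) fell by 1.41, 1.35 and 1.11. Between the *Zfp598* siRNAs *Mx2* was lower with siRNA B by 1.61 and *Ifitm2* higher by 1.44. Between the scrambled siRNAs 7 of the 95 were higher and 22 lower with siRNA B (10.4% and 12.2% of all genes), and *Cgas*, the DNA sensor, was higher by 1.06. In the pooled comparisons, 6 rose and 1 fell with *Fmr1* KD (2.73% and 3.8% of all genes), and 0 of 95 were called with *Zfp598* KD (1.96% of all genes).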

How the data were processed

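RNA-seq libraries from N2A cells under 6 siRNAs (3 libraries each, 18 in all) were grouped from their labels. Reads were trimmed (Trim Galore), mapped with STAR (GRCm39) and assigned to exons by featureCounts by the authors, who deposited raw counts per gene. The annotation release, the strand setting and the handling of reads with several alignments are not given in the sources used here, so paralogs (the OAS, IFIT and IFITM families) may share reads.

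Symbols and exon lengths were taken from GENCODE M39 (54749 of 55414 genes). Counts were tested with edgeR 4.0.16 (R 4.3.3; TMM, glmQLFit and glmQLFTest, filterByExpr with a minimum count of 10 and total of 15), in a model of 3 conditions and a model of 6 siRNA groups, each with all 18 libraries, and p-values were adjusted by Benjamini-Hochberg over all genes. DESeq2 1.42.0 was an alternative. The study made each knockdown 3 times per siRNA in 1 cell line, so in the model of 6 siRNA groups p-values measure the spread between those knockdowns. In the model of 3 conditions that spread also holds the difference between the siRNAs of a condition, whose 6 libraries are treated as independent. No pair of libraries of a group was a duplicate, since their chi-square per degree of freedom was 2.76 or more. Replicate numbers did not pair libraries (correlations of deviations from -0.399 to 0.338 between the same numbers). The scripts were tested on simulated data. Library totals bound the precision, and 3 counts is the limit that 0 counts allow, for counting error only.

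The genes and lists were chosen with earlier results of these data known. Values in every library were given for genes called at over 2-fold in any comparison with a mean of 1 CPM or more in some siRNA group, the 16 with the largest changes. Pathway genes were counted, with values for the 8 genes with the largest change over 2-fold in any comparison, interactions included.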

Additional observations from a re-analysis of the deposited data

Results flagged for a closer look

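In 27 cases the effects of the siRNAs of a target differed in the interaction test (siRNA B minus siRNA A, log2, edgeR adjusted p under 0.05). For *Fmr1* these were *Cxcl10* (-3.67), *Rsad2* (-3.005), *Oasl1* (-1.70), *Isg15* (-1.40), *Oasl2* (-1.28), *Tnfaip3* (-1.04), *Rigi* (-1.04), *Adar* (-0.55), *Nfkbia* (-0.45), *Stat2* (0.52), *Nfkb1* (0.66) and *Cmpk2* (2.04). For *Zfp598* they were *Cxcl10* (2.32), *Parp14* (2.09), *Ifit1* (1.96), *Ifitm3* (1.78), *Cmpk2* (1.59), *Dhx58* (1.44), *Isg15* (1.16), *Nfkb1* (1.09), *Oasl2* (0.95), *Irf9* (0.84), *Usp18* (0.77), *Stat2* (0.63), *Nfkbia* (0.53), *Tnfaip3* (-0.53) and *Relb* (-0.76). *Stat2*, *Nfkb1* and *Cmpk2* had the same sign for both targets, and the scrambled siRNAs enter both tests.

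Over 99 sets of 6 libraries (33 genes in 3 conditions), 3 held a library far from the other 5 by Dixon's criterion. They were *Icam1* at 4.79 CPM in *Fmr1* KD B1, *Bst2* at 22.1 CPM in *Fmr1* KD A3 and *Rigi* at 8.18 CPM in *Zfp598* KD A3. Chance meets the criterion in about 1 of 20 sets drawn from a single normal distribution. Each set here joins the siRNAs of a condition, which can differ, so that rate need not hold.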

How the results depend on the processing

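Of 136 calls of single genes, 2 reversed, both with all 6 Scramble KD libraries as the control: *Cmpk2* measured 0.10 with *Fmr1* siRNA A and 0.0297 with *Zfp598* siRNA A. On the same control 10 other calls were lost and 37 held. DESeq2 size factors kept all 136, DESeq2 kept the 135 for which it gave an adjusted p (none for *Ifih1* between the *Fmr1* siRNAs), 25 were lost with only the groups compared in the fit, 15 without *Zfp598* KD A2 and A3 (an alternative chosen after seeing the data), and 49 on leaving out some library.

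The number of the 33 genes called in *Fmr1* KD against Scramble KD was 0 with counts summed per siRNA (share of all genes not given). In pooled *Zfp598* KD it was 1 with the siRNA letter as a block and 1 without *Zfp598* KD A2 and A3. For *Zfp598* siRNA A it was 0 with only the groups compared, 3 against all 6 Scramble KD libraries, 4 without *Zfp598* KD A2 and A3, and 4 to 10 on leaving out 1 library. Between the *Zfp598* siRNAs it was 9 with only the groups compared and 11 without *Zfp598* KD A2 and A3. Requiring 2-fold as well left 10 (*Fmr1* A), 5 (*Fmr1* B), 1 (*Zfp598* A), 5 (*Zfp598* B), 4 (between scrambled siRNAs), 10 (between *Fmr1* siRNAs), 5 (between *Zfp598* siRNAs) and 8 (*Zfp598* interaction). Fewer samples or a stricter call rule enter several of these, and the cause was not tested for the others.

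With the replicate number as a block, the counts were 9 in pooled *Fmr1* KD, 17 and 11 for *Fmr1* siRNAs A and B, and 10 and 13 for those of *Zfp598*, and 1 call, *Rsad2* in pooled *Fmr1* KD, was lost. The numbers did not pair the libraries. Of the 42 genes, 9 were too low at these depths to be tested, so a difference in them was not detectable in the main test.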
